A study of Drosophila melanogaster with 2 samples.

Results

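Transcripts of 8 genes for variant histones and early chromatin proteins were followed through the first 3 h of Drosophila melanogaster embryogenesis. The genes were BigH1, His2Av, His3.3A, His3.3B, His4r, cid, HmgD and HmgZ, taken by symbol from a table of 7629 genes measured in 84 single embryos, and all 8 were present and passed the filter on low counts. Each embryo was 1 biological replicate of the wild-type inbred line DGRP-737, without treatment, and its polyadenylated RNA was counted as unique molecular identifiers (UMIs) by a modified CEL-Seq2 protocol in 1 of 2 pooled libraries. The embryos came from 2 cages, A with 47 embryos and B with 37, in collection intervals of 0-1 h (28 embryos), 1-2 h (33) and 2-3 h (23). Genotyping called 30 of them female and 31 male, and 23 young embryos were not genotyped. The authors ordered them along pseudo-time, a scale of developmental progress computed from the transcriptomes, and divided them into 8 clusters with 29, 11, 6, 3, 9, 7, 10 and 9 embryos. The whole embryo was sequenced, so the parts of the embryo that hold a transcript are not resolved, and fewer cells with a transcript cannot be told apart from less transcript per cell.

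Histones package DNA into nucleosomes, and linker histones bind between them. Canonical histone genes are copied in S phase from a repeated gene cluster. Their mRNAs end in a stem-loop instead of a poly(A) tail, and these libraries count polyadenylated RNA. Variant and replacement histone genes lie outside this cluster and make polyadenylated mRNA. In the fly egg, chromatin is first assembled from maternal supplies, and the embryonic linker histone BigH1 and the HMG-box protein HmgD take the place that linker histone H1 has later. At the midblastula transition the nuclear cycles slow, the zygotic genome is activated and maternal mRNA is cleared.

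In Release 6 coordinates of the fly genome, BigH1 (FBgn0038252) lies on 3R from 14663450 to 14664822 on the plus strand, close to the replacement H4 gene His4r (FBgn0013981) at 14625755 to 14626614. His2Av (FBgn0001197) lies on 3R from 26866929 to 26869220. The H3.3 genes lie apart, His3.3A (FBgn0014857) on 2L from 5055058 to 5056149 and His3.3B (FBgn0004828) on X from 9152523 to 9156669. The centromeric H3 gene cid (FBgn0040477) lies on 2R from 13485617 to 13486631. HmgD (FBgn0004362), at 21701458 to 21716727 on 2R, and HmgZ (FBgn0010228), at 21697488 to 21707861, are neighbours on opposite strands. Their gene bodies overlap by 6404 bases, with 0 bases shared between exons. His3.3A shares 168 exonic bases with Nepl3 on the other strand. Whether the counting used strand is not given in the sources used here, so reads in such stretches are uncertain.

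Values are given as normalized counts, the UMIs of a gene per 274491 UMIs of the embryo, which was the smallest total. They are shares of an embryo's UMIs, so the amount of a transcript per embryo was not measured. A higher share in a later cluster does not by itself mean more molecules per embryo. Totals ranged from 274491 to 2105275 UMIs, with a median of 932058, so 1 normalized count is 1 to about 8 UMIs. The stage of the clusters was described with fixed gene groups. These genes were part of the transcriptomes that built the clusters, so this is no independent check of stage. For 20 minor activation genes the sum was 6.10 ± 5.10 normalized counts in cluster 1, and from cluster 2 to cluster 5 it was 121 ± 42.4, 495 ± 79.7, 1404 ± 217 and 1690 ± 163 (SD). The sum of 17 major activation genes was lowest in cluster 3 at 32.9 ± 5.64 and reached 156 ± 39.3 in cluster 5 and 912 ± 32.6 in cluster 8. The maternal transcripts dhd and yl averaged 8.05 and 2.36 in cluster 5, against 676 and 130 in cluster 1.

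**Figure D1:**
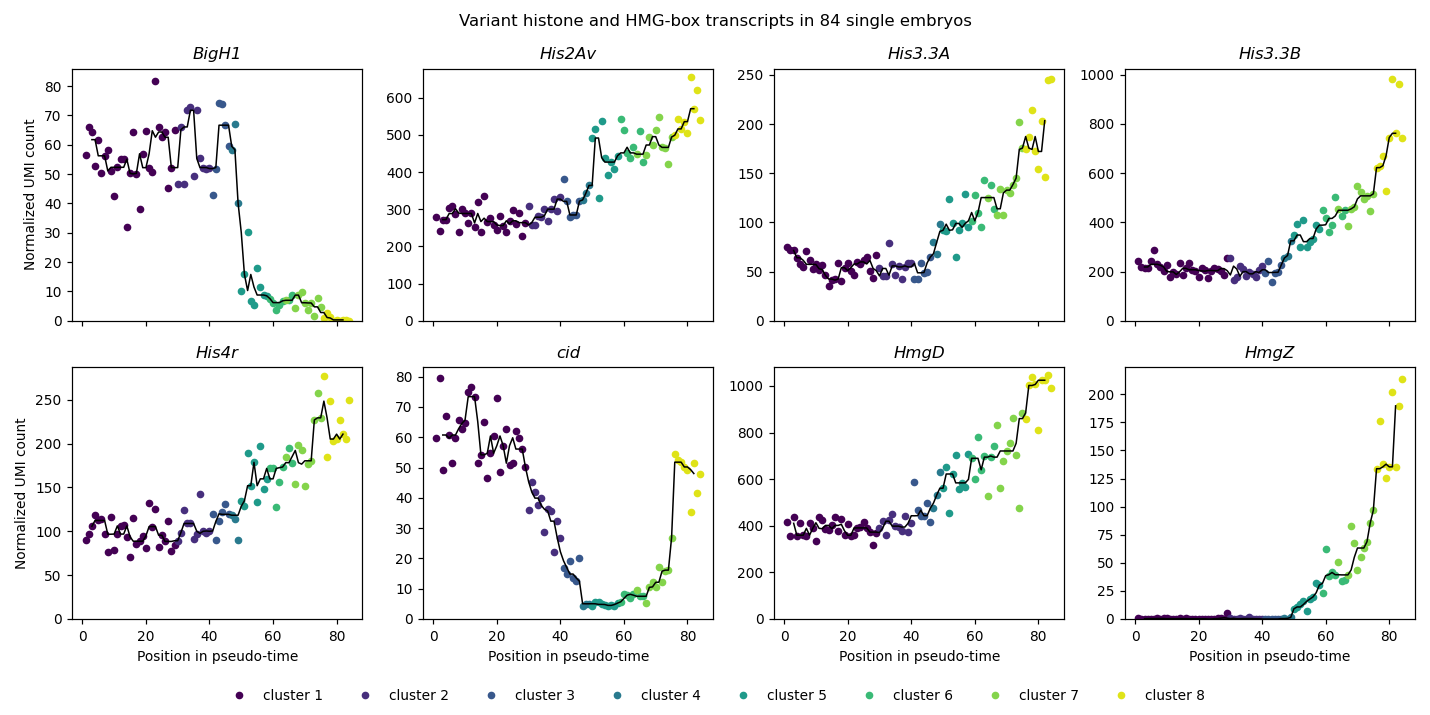
Normalized UMI counts of the 8 genes (y axes, each from 0) in 84 embryos by position in pseudo-time (x axes), coloured by cluster, with a running median over 5 embryos as a black line. BigH1 dropped around position 51, cid had its minimum at position 55 and was high again in cluster 8, HmgZ rose after position 49, and the other genes were highest in cluster 8.

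Together the 8 genes took 0.417% of all UMIs in cluster 1, 0.614% in cluster 5 and 1.06% in cluster 8. They followed 4 courses. BigH1 was a maternal transcript that was lost, cid was lost and then regained, HmgZ appeared at genome activation, and His2Av, His3.3A, His3.3B, His4r and HmgD were present from the first embryo and were highest in cluster 8. Clusters were compared with edgeR's quasi-likelihood test, and calls required an adjusted p (Benjamini-Hochberg) below 0.01 together with a log2 fold change above 1 or below -1. The clusters had been built from the same transcriptomes, so these p-values are not those of groups set independently of expression.

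By this rule no member was called in cluster 2 against cluster 1 (4.84% of 7619 tested genes were called), where edgeR gave 1 of 8 at an unadjusted p below 0.05 and DESeq2 called 0. 1 member was called in cluster 3 against cluster 2 (3.44% of all genes), 1 in cluster 4 against cluster 3 (12.8%), 2 in cluster 5 against cluster 4 (20%) and 2 in cluster 6 against cluster 5 (9.41%). None was called in cluster 7 against cluster 6 (2.18%), with 2 at an unadjusted p below 0.05 in edgeR and 0 called by DESeq2. In cluster 8 against cluster 7, 3 of the 8 members were called, where 36.9% of all genes were. In cluster 5 against cluster 1, 4 of 8 were called, close to the 51.4% of all genes. Every one of these calls between neighbouring clusters belonged to BigH1, cid or HmgZ.

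**Figure D2:**
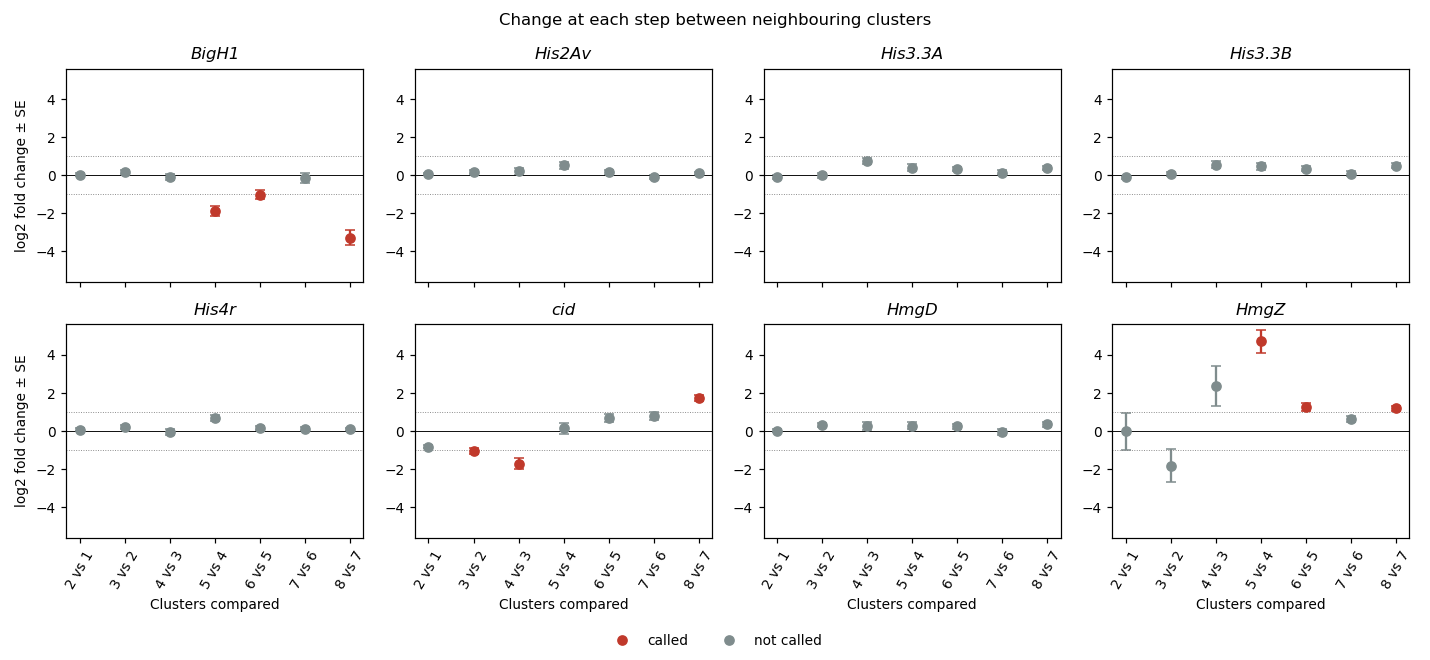
log2 fold change of each gene (y axes) in each cluster against the one before it (x axes), with its standard error as a bar. Red points were called, grey points were not, and dotted lines mark log2 values of 1 and -1. The 9 red points all lie in the panels of BigH1, cid and HmgZ.

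BigH1, the linker histone of the early embryo, held its maternal level through clusters 1 to 4 and was nearly gone at the end of the series. Its means over clusters 1 to 4 were 55.9 ± 9.86, 57.9 ± 10.6, 61.5 ± 12.6 and 55.2 ± 13.8 normalized counts (SD). Those over clusters 5 to 8 were 12.8 ± 7.67, 6.45 ± 1.69, 5.98 ± 2.51 and 0.670 ± 0.899. None of the first 3 steps was called for it, with log2 fold changes between -0.09 and 0.18.

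The main drop of BigH1 fell between clusters 4 and 5. In the 9 embryos of cluster 5 the lowest value was 5.39, the median 10.3 and the highest 30.1, against 58.3, 67.1 and 40.1 in the 3 embryos of cluster 4. The groups did not overlap, as for 16.2% of all genes in this direction. The log2 fold change was -1.88 ± 0.26 (SE, adjusted p = 3.8e-06 by edgeR's quasi-likelihood test). The embryo with 30.1 stood at position 52 and was also the most deeply counted of the series, at 2105275 UMIs.

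BigH1 was lower again in cluster 6, where the values ran from 3.57 over a median of 6.80 to 8.83. The log2 fold change against cluster 5 was -1.02 ± 0.26 (adjusted p = 0.0029, edgeR). Without the embryo at position 52 it was -0.75 with an adjusted p of 0.016, and the call was also lost with DESeq2 (-0.91), with scaling to 2 reference genes (-0.93) and with cage as covariate (-0.90). Between clusters 6 and 7 no difference was detected, at -0.16 ± 0.26.

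In cluster 8 BigH1 was the rarest of the 8 transcripts. The 9 embryos held 15 UMIs in all, 3 of them had none, and the values reached from 0 over a median of 0.426 to 2.81, against 1.63, 6.11 and 9.95 as the lowest, median and highest of the 10 embryos of cluster 7. The log2 fold change was -3.27 ± 0.42 (adjusted p = 3.5e-08, edgeR), and the 2 clusters overlapped. Set against cluster 1, the mean in cluster 8 was 1.20%.

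The H2A variant His2Av, which in flies serves both at promoters and in the response to DNA breaks, was plentiful from the start and gained about 1 log2 unit over the series without a called step. Its cluster means were 273 ± 26.3, 292 ± 25.8, 313 ± 38.9, 344 ± 19.5, 443 ± 65.0, 479 ± 44.0, 477 ± 36.6 and 554 ± 53.3 normalized counts from cluster 1 to cluster 8 (SD). The cluster 8 mean was 2.03 times that of cluster 1. In cluster 5 the values ran from 329 over a median of 439 to 539, against 228, 271 and 336 in cluster 1. The ranges met only at their edges, and the log2 fold change was 0.88 ± 0.07 (adjusted p = 9.5e-16, edgeR), under the fold required for a call. In cluster 5 against cluster 4 it was 0.52 ± 0.19 with an adjusted p of 0.031, and in cluster 8 against cluster 7 it was 0.09 ± 0.10. With scaling to 2 reference genes these were 0.24 and 0.78, and the medians of all genes were then -0.18 and 0.68.

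His3.3A and His3.3B encode the same H3.3 protein, the H3 form that is put into chromatin outside replication. Both stayed near their early level through cluster 3 and had a higher mean in each later cluster. His3.3A averaged 56.2 ± 10.3, 54.3 ± 10.1 and 51.0 ± 9.08 in clusters 1 to 3, and 82.1 ± 15.1, 98.4 ± 19, 119 ± 18.2, 140 ± 29.2 and 194 ± 36.3 in clusters 4 to 8 (SD). His3.3B averaged 213 ± 24.9, 201 ± 26.4 and 202 ± 29.6 in clusters 1 to 3, and 282 ± 37.8, 351 ± 40.7, 427 ± 46.5, 479 ± 47.3 and 738 ± 152 in clusters 4 to 8.

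Both H3.3 genes were higher in the small cluster 4 than in cluster 3. Single embryos of cluster 1 also reached the range of cluster 4 for both genes. The highest embryo of cluster 2 did so for His3.3A only, at 79.4. His3.3A had 79.8, 68.3 and 98.2 normalized counts in the 3 embryos of cluster 4, against a lowest value of 42.0, a median of 48.9 and a highest of 64.8 in cluster 3. For His3.3B the 3 values were 255, 265 and 325, against 157, 196 and 243. All embryos of cluster 4 lay above all of cluster 3 for both genes, as for 7.86% of all genes. The log2 fold changes were 0.74 ± 0.17 (adjusted p = 0.0011, edgeR) for His3.3A and 0.56 ± 0.18 (adjusted p = 0.019) for His3.3B, both under the fold for a call.

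Over the longer comparison of cluster 5 with cluster 1, His3.3A was called at 1.00 ± 0.09 (adjusted p = 6.7e-15, edgeR) and His3.3B was not, at 0.91 ± 0.07 (adjusted p = 3.1e-16). The difference between the genes was not tested, and the intervals of 1 SE overlap. The call of His3.3A was lost under 5 of the alternatives, and without the embryo at position 52 its value was 0.97. In this comparison the median log2 fold change of all genes was itself 0.13, so relative to it the 2 genes gained less than these values state.

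In the last step His3.3B had a lowest value of 529, a median of 742 and a highest of 983 in cluster 8, against 385, 479 and 546 in cluster 7. Its log2 fold change was 0.50 ± 0.12 (adjusted p = 0.00039, edgeR), and that of His3.3A 0.36 ± 0.11 (adjusted p = 0.0055). The proportion between the 2 genes hardly moved. His3.3A made up 20.9 ± 3.04% of their joint UMIs in cluster 1 and 21 ± 3.47% in cluster 8 (SD), and the lowest and highest cluster means were 20.4% and 22.5%.

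His4r, a gene for histone H4 outside the repeated cluster, stayed near its early level through cluster 4. It averaged 98.3 ± 15.9, 105 ± 15.8, 116 ± 14.1 and 107 ± 15.5 in clusters 1 to 4, and 158 ± 25.0, 168 ± 21.1, 195 ± 34.0 and 223 ± 29.5 in clusters 5 to 8 (SD). At the step into cluster 4, where both H3.3 genes were higher in every embryo, its log2 fold change was -0.03 ± 0.17. In cluster 5 the 9 embryos ran from 129 over a median of 152 to 197, against 89.6, 114 and 118 in the 3 embryos of cluster 4. The groups did not overlap, as for 7.31% of all genes in this direction. The log2 fold change there was 0.70 ± 0.17 (adjusted p = 0.0015, edgeR), under the fold for a call.

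The centromeric histone cid, which marks the site where the kinetochore forms, had the earliest decline of the group and came back at the end. Its means over clusters 1 to 5 were 60.3 ± 9.04, 34.8 ± 6.83, 16.2 ± 3.13, 4.80 ± 0.393 and 4.83 ± 0.596 normalized counts (SD). Those over clusters 6 to 8 were 7.39 ± 0.903, 13.6 ± 5.85 and 48.3 ± 6.07. The lowest cluster mean was 7.96% of that in cluster 1, and the last was 80.0% of it.

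Each of the first 3 steps of cid separated the embryos completely. The 11 embryos of cluster 2 ran from 22.2 over a median of 36.1 to 45.4, against 46.7, 59.8 and 79.5 in cluster 1. All of cluster 2 lay below all of cluster 1, as for 0.866% of all genes, and the log2 fold change was -0.82 ± 0.08 (adjusted p = 6.0e-12, edgeR), which is under the fold for a call. In cluster 3 the values were 12.5, 15.9 and 20.2, again below all of cluster 2, as for 3.10% of all genes, and the gene was called at -1.04 ± 0.14 (adjusted p = 5.2e-06). In cluster 4 the 3 embryos held 4.35, 5.04 and 5.02, below all of cluster 3, as for 15.0% of all genes. They held 35 UMIs in all, and cid was called at -1.71 ± 0.28 (adjusted p = 1.1e-05).

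The return of cid was gradual at first. The step into cluster 6 gave 0.69 ± 0.19 (adjusted p = 0.0078, edgeR) and that into cluster 7 gave 0.79 ± 0.23 (adjusted p = 0.019), both without a call. In cluster 7 the embryos spread from 5.44 over a median of 12.1 to 26.9. The values of cluster 8, at 35.3, 50.2 and 54.4, lay above all of these, as for 14.3% of all genes. The log2 fold change was 1.72 ± 0.17 (adjusted p = 1.3e-10).

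HmgD and HmgZ encode closely related HMG-box proteins that bend DNA, and their transcripts behaved differently at the start. HmgD was maternal and averaged 388 ± 31.9, 404 ± 28.7, 476 ± 61.6 and 546 ± 79.6 normalized counts over clusters 1 to 4 (SD). Over clusters 5 to 8 it averaged 601 ± 80.4, 692 ± 60.5, 700 ± 142 and 978 ± 83.8. HmgZ was almost absent before cluster 5, at 0.507 ± 0.981, 0.440 ± 0.452, 0.0681 ± 0.167 and 0.801 ± 0.557 in clusters 1 to 4, and averaged 17.2 ± 8.77, 39.0 ± 11.7, 65.3 ± 18.9 and 161 ± 34.2 in clusters 5 to 8.

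The early counts of HmgZ were close to the detection limit. The 29 embryos of cluster 1 held 51 UMIs of HmgZ in all, with none in 8 embryos, and the highest value, 5.34, belonged to the last embryo of the cluster at position 29. In cluster 3 only 2 UMIs were counted, both in 1 of the 6 embryos, and in cluster 4 the embryos held 2, 1 and 2 UMIs. Per UMI of the embryos, the rate in cluster 4 was 6.22 times that in cluster 3, with an exact 95% interval of 1.02 to 65.3 that covers counting error only, and edgeR made no call (adjusted p = 0.098).

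HmgZ was present in every embryo from cluster 5 on. The 9 embryos of cluster 5 ran from 7.18 over a median of 15.7 to 31.8, against 0.580, 0.388 and 1.43 in cluster 4. The groups did not overlap, as for 7.31% of all genes in this direction. The log2 fold change was 4.72 ± 0.61 (adjusted p = 1.3e-06, edgeR), a value that depends on the prior count because cluster 4 held 5 UMIs. The ratio of the summed rates was 24.8, with an exact 95% interval of 10.6 to 76.8 for counting error.

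The later clusters held more HmgZ still. In cluster 6 the values were 23.4, 38.6 and 62.0 as lowest, median and highest, and the log2 fold change against cluster 5 was 1.25 ± 0.22 (adjusted p = 4.3e-05, edgeR). Cluster 7, at 39.3, 65.5 and 96.9, differed from cluster 6 by 0.64 ± 0.16 (adjusted p = 0.0079), under the fold for a call. In cluster 8, at 126, 138 and 214, all embryos lay above all of cluster 7, as for cid, with a log2 fold change of 1.19 ± 0.13 (adjusted p = 3.1e-09).

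HmgD showed no called step. In cluster 8 against cluster 7 it was at 0.35 ± 0.13 (adjusted p = 0.024, edgeR), or 1.02 and called with scaling to 2 reference genes, which put the median of all genes at 0.68. The values in cluster 8 ran from 810 over a median of 1006 to 1046, against 476, 712 and 885 in cluster 7. In cluster 5 against cluster 1 it gained 0.82 ± 0.07 (adjusted p = 1.2e-14), and the ranges did not overlap, at 454 to 708 in cluster 5 and 319 to 438 in cluster 1, as for 10.3% of all genes in this direction. As a share of the joint UMIs of both genes, HmgZ was 0.134 ± 0.261% in cluster 1, and 2.80 ± 1.34%, 5.41 ± 1.95%, 8.86 ± 3.25% and 14.1 ± 2.30% over clusters 5 to 8 (SD). The 2 genes overlap, and the part of reads from one counted for the other was not tested.

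**Figure D3:**
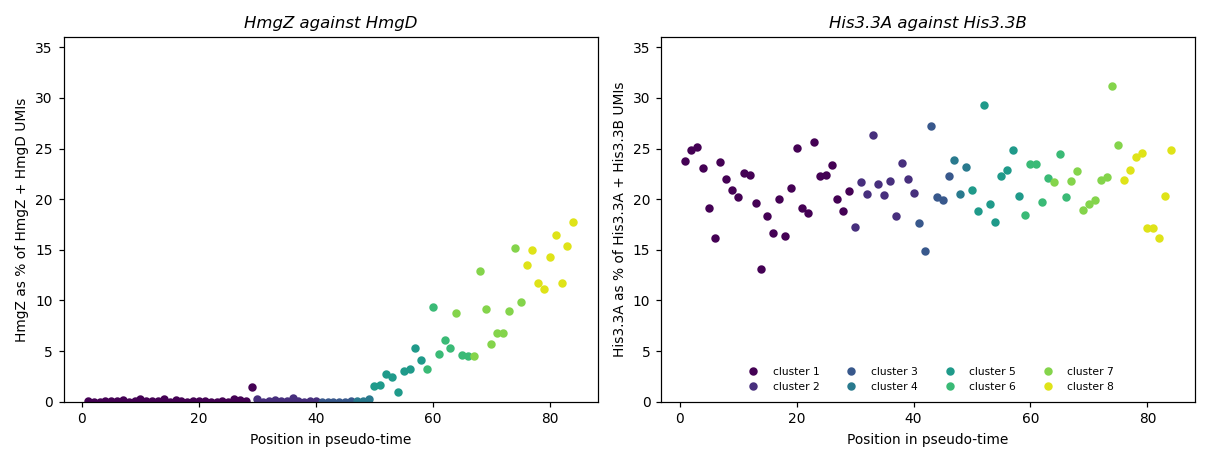
UMIs of HmgZ as a percentage of HmgZ and HmgD together (left), and of His3.3A as a percentage of His3.3A and His3.3B together (right), in each of 84 embryos by position in pseudo-time. The share of HmgZ averaged 14.1% in cluster 8 and 0.134% in cluster 1, while the cluster means of the His3.3A share stayed between 20.4% and 22.5%.

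The collection interval of an embryo was set by the clock and not by its transcriptome. The study had, however, left out unfertilized eggs and embryos judged too old by their transcriptomes, so the embryos that remain in each interval did depend on expression. All 23 embryos of 2-3 h stood in clusters 5 to 8, but so did 5 of the 28 embryos of 0-1 h and 7 of the 33 embryos of 1-2 h. The intervals therefore overlap in stage. In embryos of 2-3 h against 0-1 h, 2 of the 8 members were called, both lower, where 39.5% of all genes were called and 30.6% were called lower.

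BigH1 had a lowest value of 0, a median of 6.20 and a highest of 30.1 in embryos of 2-3 h, against 0, 51.7 and 81.9 in embryos of 0-1 h. Its log2 fold change was -2.44 ± 0.41 (adjusted p = 6.0e-07, edgeR). For cid the values were 4.13, 7.48 and 54.4 in embryos of 2-3 h, against 4.18, 59.7 and 79.5 in embryos of 0-1 h, and the log2 fold change was -1.70 ± 0.28 (adjusted p = 4.6e-07). The medians of cid over 0-1 h, 1-2 h and 2-3 h were 59.7, 26.8 and 7.48, while those of BigH1 were 51.7, 52.2 and 6.20. In these medians cid was lower already at 1-2 h, and BigH1 only at 2-3 h.

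HmgZ was not called by interval, although its medians were far apart. It ran from 7.18 over a median of 39.3 to 202 in embryos of 2-3 h, against 0, 0.328 and 214 in embryos of 0-1 h, with a log2 fold change of 1.48 ± 0.75 (adjusted p = 0.069, edgeR). The 5 embryos of 0-1 h in clusters 5 to 8 had 31.8 to 214, and the other 23 had 0 to 0.928. His2Av, His3.3A, His3.3B, His4r and HmgD were higher in embryos of 2-3 h by log2 fold changes of 0.79, 0.82, 0.85, 0.75 and 0.76, with standard errors of 0.10 to 0.19. All 5 adjusted p-values were at or below 8.9e-05, and none of the 5 reached the fold for a call. At any fold, 30.6% of all genes were higher by that adjusted p threshold.

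**Figure D4:**
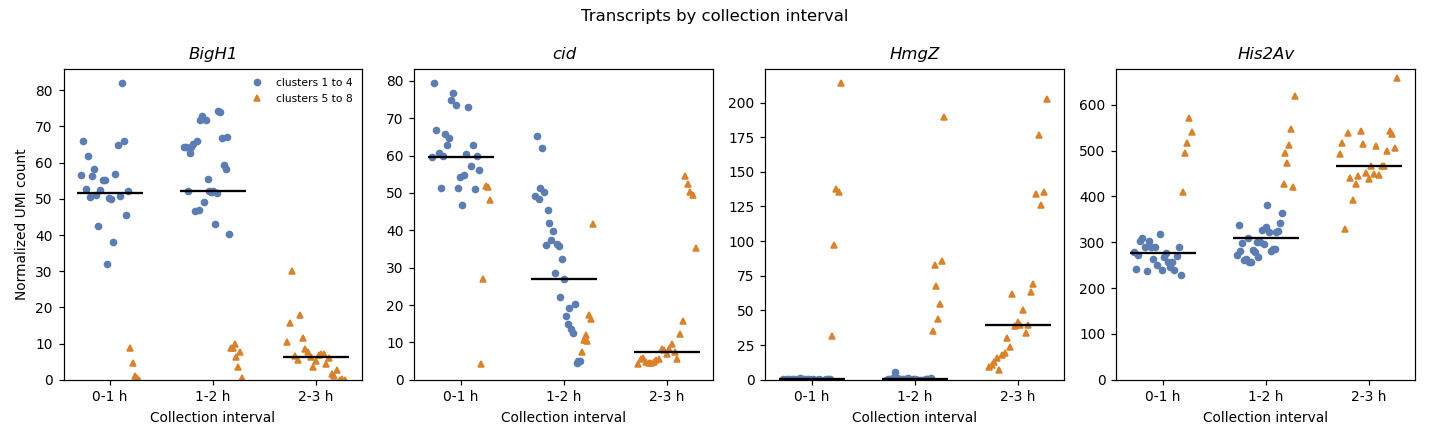
Normalized UMI counts (y axes, from 0) of BigH1, cid, HmgZ and His2Av in embryos of 3 collection intervals, in order of pseudo-time within each interval. Blue circles are embryos of clusters 1 to 4, orange triangles those of clusters 5 to 8, and black lines are medians. The median of BigH1 was 6.20 in embryos of 2-3 h and 51.7 in embryos of 0-1 h, and that of cid was lower in each later interval.

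The sexes were compared over the 61 genotyped embryos, since His3.3B is X-linked and the other 7 genes are autosomal. With a spline over the clusters and its interaction with sex, edgeR called no member, where 0.407% of all genes were called, and 1 member, cid, had an unadjusted p below 0.05 (adjusted p = 0.69). With the cluster as a factor no member was called either, where 0.289% of all genes were, none had an unadjusted p below 0.05, and DESeq2 called 0 members. Log2 fold changes of females over males lay between -0.03 and 0.07, with standard errors up to 0.11. For His3.3B the value was 0.07 ± 0.06 (adjusted p = 0.90), and its adjusted p in the spline fit was 0.95.

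In cluster 8 alone, a stratum singled out after its values were seen and therefore not tested, His3.3B separated the sexes. The 5 females had 744, 983, 762, 961 and 742 normalized counts, against 622, 630, 671 and 529 in the 4 males. The means were 839 ± 122 in females and 613 ± 59.9 in males (SD). In this cluster all females lay above all males for 3.32% of all genes. In each of the other clusters the ranges of the sexes overlapped, with the higher mean in females in clusters 1 to 4 and 6 and in males in clusters 5 and 7. It averaged 471 ± 51.5 in 7 females and 498 ± 37.4 in 3 males of cluster 7, 437 ± 16.5 in 2 females and 424 ± 55.7 in 5 males of cluster 6, and 318 ± 17.8 in 3 females and 368 ± 39.2 in 6 males of cluster 5. The females of cluster 8 all stood after its males in pseudo-time, at positions 80 to 84 against 76 to 79. Sex and position therefore cannot be told apart in this cluster. Separation of the sexes within a cluster was not particular to His3.3B. In cluster 6 the autosomal His4r had 178 and 196 in 2 females, against 128 to 173 in 5 males. All females lay above all males there for 4.24% of all genes.

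Between cages no member was called in cage B against cage A with the cluster as a factor, as for 0.0% of all genes by edgeR. BigH1 was the only member with an unadjusted p below 0.05, at -0.18 ± 0.08 (adjusted p = 0.83), and DESeq2 called 0 genes. At an unadjusted p below 0.05 edgeR gave 450 of the 7619 genes.

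Genes that act on these histones were taken from 5 lists. Of all genes, 18.6% were called higher and 32.8% lower in cluster 5 against cluster 1, with a median log2 fold change of 0.13. At the step to cluster 8 from cluster 7, 21.1% were called higher and 15.8% lower, with a median of 0.00. The lists were not tested against all genes. Of 16 subunits of the Tip60 and Domino complexes, which exchange H2A.Z-type variants such as His2Av, 6 were higher and 0 lower in cluster 5 against cluster 1, with a median log2 fold change of 0.88. MRG15 averaged 29.7 ± 4.3 in cluster 5 and 14.5 ± 2.3 in cluster 1 (log2 fold change 1.23, adjusted p = 3.7e-19, edgeR). Brd8 and YL-1 were called at 1.27 and 1.12. Between clusters 8 and 7, 0 subunits were higher and 4 lower in cluster 8, with a median of -0.53. The ATPases rept and pont were called at -2.23 and -1.49, and DMAP1 at -1.27. His2Av itself differed by 0.09 ± 0.10 at that step.

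Of 10 tested chaperones and loaders of H3.3, of H3-H4 and of the centromeric histone, 1 was higher and 5 lower in cluster 5 against cluster 1, with a median of -0.79. Together 6 of 10 were called, close to the 51.4% of all genes. Hira, which deposits H3.3, averaged 3.84 ± 2.1 in cluster 5 and 51.6 ± 6.7 in cluster 1 (log2 fold change -3.43, adjusted p = 1.4e-28, edgeR). Its partner yem was called at -2.95. The cid loader cal1 averaged 7.70 ± 2.5 in cluster 5 and 45.2 ± 4.2 in cluster 1 (-2.31, adjusted p = 7.1e-27).

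Of these chaperones, 3 were higher and 2 lower in cluster 8 against cluster 7, with a median of 0.19. At this step 21.1% of all genes were called higher and 15.8% lower. Hira rose by 2.87 to 9.54 ± 3.7 in cluster 8, against 1.02 ± 0.61 in cluster 7. The centromere protein gene Cenp-C rose by 1.64 to 11.9 ± 1.1, against 3.58 ± 1.4 in cluster 7, at the step at which cid returned. Caf1-105, a subunit of the replication-coupled assembly factor, fell by 1.27 on the log2 scale.

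Among 10 other chaperones and storage factors, 3 were higher and 3 lower in cluster 5 against cluster 1, with a median of 0.12. In that comparison 18.6% of all genes were called higher and 32.8% lower. Jabba, which holds maternal histones on lipid droplets, averaged 4.85 ± 2.1 in cluster 5 and 407 ± 37 in cluster 1 (log2 fold change -6.12, adjusted p = 6.3e-40, edgeR). The subunits of the FACT complex, Ssrp and dre4, were called at -3.13 and -1.91. In cluster 8 both were called higher than in cluster 7, at 1.83 and 1.79.

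Of 9 tested factors for the production of canonical histone mRNA, 1 was higher and 5 lower in cluster 5 against cluster 1. Their median was -1.40, and 18.6% of all genes were called higher and 32.8% lower. The histone locus body genes mxc and mute were called at -2.35 and -2.17, and Cpsf73, the endonuclease that cuts histone mRNA, at -3.40. The value of Cpsf73 rests on low counts, at 0.223 ± 0.325 in cluster 5 and 4.85 ± 1.41 in cluster 1 (SD). In cluster 8 against cluster 7, 3 were higher and 0 lower, with a median of 0.93, where 21.1% of all genes were called higher and 15.8% lower. In cluster 6 against cluster 5, 1 of the 9 factors was higher and 3 lower, with a median of -0.69. At this step 3.78% of all genes were called higher and 5.63% lower. Lsm11 and wge were called at -1.51 and -1.13. The stem-loop binding protein gene Slbp was called at 1.04, averaging 86.0 ± 19 in cluster 6 and 43.3 ± 17 in cluster 5.

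The last list held heterochromatin and architectural genes. Of 15 tested, 6 were higher and 0 lower in cluster 5 against cluster 1, with a median of 0.96. In that comparison 18.6% of all genes were called higher and 32.8% lower, with a median of 0.13. Dsp1, another HMG-box gene, averaged 52.2 ± 15 in cluster 5 and 16.9 ± 4.7 in cluster 1 (log2 fold change 1.84, adjusted p = 5.8e-19, edgeR). Top2, the gene for topoisomerase II, was called at 1.23. In embryos of 2-3 h against 0-1 h, 2 of the 15 were called higher and 0 lower, Dsp1 at 1.54 and Top2 at 1.01. Of all genes, 8.93% were called higher and 30.6% lower. For the other lists the same intervals gave 0 called of the 16 exchange subunits, 5 lower of the 10 H3.3, H3-H4 and cid chaperones, 3 lower of the 10 other chaperones, and 1 higher and 5 lower of the 9 factors of histone mRNA production.

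The genes with the most similar courses were found by Spearman's rho over the 84 embryos among 5158 genes with a mean of at least 5 normalized counts. These embryos share the pseudo-time order and the depth of their libraries, so rho describes a shared course only. For cid they were La (0.94), PRAS40 (0.94) and the histone chaperone gene asf1 (0.94). For BigH1 they were Ge-1 (0.91), Nt5b (0.90) and Rheb (0.89), of which Rheb kept 10.1 ± 3.4 in cluster 8, against 23.3 ± 3.6 in cluster 1, a smaller loss than that of BigH1. For HmgZ they were pdm2 (0.91), Traf4 (0.91) and the member His3.3B (0.89).

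His3.3A was nearest to RpL7A (0.92), Spase25 (0.91) and RpS15 (0.90), and His4r to RpS16 (0.88), RpL36 (0.88) and Fkbp12 (0.88). His3.3B was nearest to caz (0.95), RnpS1 (0.92) and fkh (0.91). The last of these averaged 320 ± 61 in cluster 8 and 4.75 ± 4.5 in cluster 1, so a high rho did not mean a like size of change. His2Av was nearest to Pep (0.93), Bsg (0.91) and Akap200 (0.91), and HmgD to Sumo (0.94), RpL15 (0.92) and Fer2LCH (0.92). Among the members, rho was 0.88 between His3.3A and His3.3B, 0.71 between HmgD and HmgZ, 0.36 between BigH1 and cid, and -0.82 between BigH1 and His2Av.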

How the data were processed

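Single embryos were sequenced with a modified CEL-Seq2 protocol. The authors aligned and counted reads with STAR 2.7.8a (STARsolo) on BDGP 6.28 (Ensembl 100), clustered embryos with RaceID 0.2.6 and ordered them with FateID 0.2.2. They deposited raw UMI counts for 2 libraries and a normalized signal for 84 embryos and 7629 genes, in which the count was divided by the embryo's total, multiplied by the smallest total and increased by 0.1. Counts were recovered from this table, with 100% of values whole to within 0.0001. The table holds at least 99.9% of each embryo's UMIs. Cluster, order and sex of embryos came from the study's supplementary tables. The last cluster is numbered 8 here. Gene positions are from Ensembl 115 (Release 6 coordinates).

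The 7619 genes that reached 3 counts in 5 or more embryos were tested with edgeR 4.0.16 in R 4.3.3 (quasi-likelihood F test, TMM factors), only the embryos compared entering each fit. A call needed an adjusted p below 0.01 with a change of more than 1 on the log2 scale; for sex the fold was not required, and the spline had 7 degrees of freedom. The standard error is the log2 fold change over the root of F. The fit was tested on simulated data. Python 3.11.15, pandas 2.3.3, scipy 1.17.1 and DESeq2 1.42.0 served for the rest. Alternatives were DESeq2 size factors, no filter, 10 counts in 5 embryos, library totals, all 84 embryos in 1 fit, scaling to CG6707 and Pgam5, cage as covariate, a spline with 3 degrees of freedom and leaving out embryos. The 8 members, the gene lists and the tests were chosen with earlier results of these data known. All 8 members were named, with up to 3 called genes per list and comparison and the 3 genes of highest rho per member; some of these were left out for length, and activation genes appear only as sums. No barcode was matched to an embryo, and the part of the library in the results was not tested. Counting intervals cover counting error only.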

Additional observations from a re-analysis of the deposited data

Results flagged for a closer look

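Dixon's test was run over 40 groups of 6 to 10 embryos (8 genes in 5 clusters). The highest or lowest embryo stood apart in 2, which is about the 1 in 20 that chance gives. In cluster 8, BigH1 had 2.81 normalized counts in the embryo at position 77, against 1.12 in the next highest of 9. In cluster 3, HmgZ had 0.409 normalized counts in 1 of 6 embryos, which is 2 UMIs, and none in the other 5. With those 5 at 0, any count in the remaining embryo would have been flagged.

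Canonical histone genes, which the comparisons did not include, were looked at in the raw counts and were almost without UMIs there. These raw counts also hold the compared embryos. Among raw barcodes with at least 250000 UMIs, which were not assigned to embryos, canonical histone genes took 0.000369% of UMIs in 1 library (187 UMIs in 62 barcodes) and 0.000435% in the other (259 UMIs in 60 barcodes). Of 111 such genes, 109 and 108 had no UMI in these libraries, and the 8 variant and chromatin genes took 0.600% and 0.567% of the same UMIs. Reads shared between copies of the repeated genes were not looked at. The counts therefore do not show whether these mRNAs were captured, and the cause of the low counts was not tested.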

How the results depend on the processing

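Of 648 values of single genes under alternatives, 615 kept their direction and their side of the threshold, 9 were no longer called, 4 became called and 20 changed sign. None of the sign changes touched a called value.

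Calls of the members moved in 3 steps. In cluster 6 against cluster 5, 1 member instead of 2 was called with DESeq2, with scaling to the 2 reference genes, with cage as covariate and without the embryo at position 52, since BigH1 was then at -0.91, -0.93, -0.90 and -0.75. Scaling to CG6707 and Pgam5 called 1 member in cluster 7 against cluster 6 (cid at 1.06) and 6 in cluster 8 against cluster 7, adding His3.3A (1.03), His3.3B (1.18) and HmgD (1.02). In cluster 8 against cluster 7 that scaling moved the median of all genes to 0.68. Relative to all genes these 3 therefore gained about as much as before. The study had chosen CG6707 and Pgam5 for low variability up to a given stage. Whether they hold steady in the last clusters was not tested. Calls over all genes moved as well. With that scaling 2840 genes were called higher and 551 lower in cluster 8 against cluster 7, where the main fit called 1605 and 1206. For cluster 7 against cluster 6 the scaling called 242 genes higher and 46 lower, against 75 and 91 in the main fit. His3.3A in cluster 5 against cluster 1 was not called with library totals (0.81), DESeq2 (0.81), all embryos in 1 fit (0.91), reference gene scaling (0.76) or without the embryo at position 52 (0.97).

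Over all genes, cluster 7 against cluster 6 gave 303 calls with all embryos in 1 fit and 288 with reference gene scaling, against 166. Of its calls, 45.2% were higher in the main fit, 64.0% with library totals, 70.0% with all embryos and 84% with reference gene scaling. In cluster 8 against cluster 7 the share was 57.1%, and 83.8% with reference gene scaling. In cluster 3 against cluster 2 it was 35.9%, and 25.2% with that scaling. In cluster 5 against cluster 1 it was 36.2%, and 24.2%, 21% and 21.9% with library totals, DESeq2 and reference gene scaling.

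Sign changes in cluster 2 against cluster 1 were BigH1 at -0.028 and HmgD at -0.017 with all embryos in 1 fit, His3.3A at 0.070, His3.3B at 0.032 and HmgZ at 0.13 with reference gene scaling, and HmgZ at 0.012 with library totals, 0.0059 with the stricter filter and 0.48 without the embryo at position 29. In cluster 3 against cluster 2 they were His3.3A at 0.0060 with the stricter filter and His3.3B at -0.00083 with all embryos in 1 fit and -0.038 with reference gene scaling. In cluster 4 against cluster 3, leaving out 1 embryo of cluster 4 moved BigH1 between -0.24 and 0.011 and His4r between -0.074 and 0.013. With reference gene scaling cid was at -0.076 in cluster 5 against cluster 4, and BigH1, His2Av and HmgD were at 0.052, 0.18 and 0.23 in cluster 7 against cluster 6, where HmgD was at 0.014 with library totals and 0.0084 with all embryos in 1 fit. Between the sexes HmgD was at 0.0091 with DESeq2. The causes were not tested.

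No paired analysis was possible because the labels give only the 2 libraries, and nothing in them links an embryo of one cluster to an embryo of another. Depth limits HmgZ before cluster 5 and BigH1 in cluster 8, where clusters held 2 to 51 and 15 UMIs.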
